A study of Mus musculus with 39 samples.

Results

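Interleukin-2 (Il2) and the 3 chains of its receptor, Il2ra, Il2rb and Il2rg, were followed in 39 RNA-seq libraries of sorted mouse lymph node cells. They were chosen by gene symbol. All 4 were listed in each of the 4 deposited tables, which together hold 24689 symbols. A filter on low counts left all 4 for testing in T cells, 3 in the dendritic cell (DC) time course and in the DC costimulation experiment, and 2 in the DC 5-replicate experiment.

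Interleukin-2 is a growth and survival factor that CD4+ T cells make within hours of recognizing antigen. Il2rb (CD122) and Il2rg (CD132, the common gamma chain) form the signalling pair of the receptor, which acts through the kinases Jak1 and Jak3 and the transcription factor Stat5. Il2ra (CD25) adds no signal of its own and raises the affinity for the ligand. Il2rb and Il2rg also serve interleukin-15, and Il2rg also serves interleukins 4, 7, 9 and 21. Regulatory T cells carry Il2ra, natural killer (NK) cells and memory T cells carry Il2rb, and DC can acquire Il2ra when they mature.

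All mice were C57BL/6 and 8 to 12 weeks old. Particles were injected under the skin of the hock, and the popliteal and inguinal nodes were taken. DC, the cells that present antigen to T cells, were enriched by negative selection before the sort. The series description states that particles held the adjuvant CpG, an agonist of Toll-like receptor 9, and that mice were engrafted with OT-I and OT-II cells, T cells whose transgenic receptors see ovalbumin (OVA). In the time course, wild-type DC came from non-immunized mice or from mice given particles with CpG alone or with OVA and CpG 12 h or 24 h before, with 2 libraries per group. In the costimulation experiment, DC were taken at 12 h from 4 groups of 2 libraries. Of these, 3 were wild type: OVA particles without transferred OT cells, OVA particles with them, and particles of bovine serum albumin (BSA, a protein OT cells do not recognize) with them. The other group was Cd80/86 -/-, with OVA particles and OT cells. In the 5-replicate experiment, wild-type DC came from non-immunized mice or from mice given BSA or OVA with CpG 20 h before, with 5 libraries per group. CD4+ OT-II T cells were sorted 20 h after BSA or OVA with CpG, with 3 libraries per group. For single samples of the time course and of the 5-replicate experiment, no label states whether OT cells had been transferred. No label says that replicates came from separate animals, so p-values measure the spread between samples.

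Total counts ran from 367209 to 2052904 in the 33 DC libraries, and 155088 to 1316341 reads were recovered from the T cell libraries. More reads were recovered from each OVA T cell library (at least 423594) than from each BSA one (at most 402391). These recovered reads cover only the genes the authors kept for T cells. By the library totals that the authors give, the groups overlapped, with BSA replicate 3 above OVA replicate 1. Xist, expressed from the inactive X chromosome, stood at 3.15, 2.02 and 50.02 normalized counts in the OVA T cells and at 87.5, 98.0 and 94.8 in the BSA T cells. The Y-linked gene Ddx3y stood at 50.4, 56.5 and 36.1 in the OVA and at 29.7, 47.7 and 25.5 in the BSA T cells. The BSA T cells and the OVA library with Xist at 50.02 thus carried both marks. The other OVA libraries carried Ddx3y and little Xist. In the 5-replicate DC, Y-linked transcripts exceeded 20 CPM (the count divided by the library total, times 1000000) in 3 of 5 non-immunized, 2 of 5 OVA and 0 of 5 BSA libraries. The DC of the time course carried the T cell gene Cd3e at 83.6 to 267 CPM, whereas it was at most 14.1 CPM in the other DC libraries. The libraries labelled Cd80/86 -/- still held Cd86 (37.4 and 48.5 CPM, against 81.5 and 82.6 in the wild type with OVA and OT cells) and Cd80 (4.23 and 12.4, against 11.4 and 10.0 CPM). Counts do not show which part of the genes was deleted, so this does not check the label.

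The sequence around the start of Il2 is shown because it was the gene with the smallest p-value in T cells, and that of Il2ra because it changed in both cell types. They are taken from RefSeq (GRCm38.p6, a later build than the mm9 of the counts), in which 3 of the 4 members were found. Each runs 5′ to 3′ on the strand of the gene from 250 bases before to 50 after the annotated start. Il2 lies at chr3:37125905-37126204 on the minus strand and Il2ra at chr2:11642542-11642841 on the plus strand. Capitals mark GGAAA on either strand (TTTCC when it lies on the other strand), the core bound by NFAT, a factor switched on by T cell receptor signals, and TATAAA on the strand of the gene, the TATA box.
Il2: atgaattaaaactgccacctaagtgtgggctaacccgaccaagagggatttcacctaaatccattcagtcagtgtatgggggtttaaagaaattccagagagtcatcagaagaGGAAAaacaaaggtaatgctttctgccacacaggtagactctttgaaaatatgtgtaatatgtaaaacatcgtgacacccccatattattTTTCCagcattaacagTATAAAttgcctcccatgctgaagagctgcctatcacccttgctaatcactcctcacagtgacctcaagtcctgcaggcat
Il2ra: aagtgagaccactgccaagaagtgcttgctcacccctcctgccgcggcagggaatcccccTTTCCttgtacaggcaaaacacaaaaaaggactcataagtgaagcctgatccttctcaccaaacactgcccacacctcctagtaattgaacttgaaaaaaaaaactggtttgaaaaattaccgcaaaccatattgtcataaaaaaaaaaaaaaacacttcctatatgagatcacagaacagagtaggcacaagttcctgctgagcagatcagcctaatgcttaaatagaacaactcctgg

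In Il2 the GGAAA core began 137 bases before the start and on the other strand 47 before, and TATAAA began 31 before. In Il2ra there was 1 core, on the other strand 190 bases before the start. Of 32851 RefSeq promoters of the same length 61.3% held the core on either strand and 8.32% held TATAAA. The AP-1 motif TGANTCA (7.81% of promoters) and the STAT motif TTCNNNGAA (8.3%), searched on both strands, were not in these windows of Il2 and Il2ra. No marked motif overlapped another. These are matches of letters, not sites at which binding was measured.

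The ligand and the alpha chain were higher in OT-II T cells after OVA than after BSA, the comparison of a protein these cells recognize with one they do not. Il2 stood at 159.5, 97.5 and 128 normalized counts after OVA and at 11.9, 7.94 and 7.13 after BSA. The lowest OVA library lay above the highest BSA library. In recovered reads these values are 152, 145 and 416 against 8, 3 and 7. The log2 fold change was 3.70 ± 0.29 (SE; adjusted p = 9.43e-05, limma with a trend on log2(normalized count + 1)), and Il2 ranked 1 by p-value among 6452 genes tested. In the authors' deposited table the log2 fold change of Il2 is 3.84 with an adjusted p of 4.14e-14.

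Il2ra stood at 92.4, 57.8 and 78.7 normalized counts after OVA and at 23.7, 13.2 and 10.2 after BSA. Again the groups did not overlap. The log2 fold change was 2.27 ± 0.33 (adjusted p = 0.00295, limma), and the authors' deposited table gives 2.29 with an adjusted p of 7.84e-06. Il2 and Il2ra were the 2 members called higher of 4 tested, where 10.8% of all genes tested were called higher and 15.9% in either direction.

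The signalling chains did not pass the test in T cells. Il2rb stood at 36.7, 34.9 and 26.2 normalized counts after OVA and at 26.7, 13.2 and 17.3 after BSA, so that the lowest OVA library lay just under the highest BSA library. Its log2 fold change was 0.78 ± 0.31 (adjusted p = 0.105, limma), with a 95% interval from 0.17 to 1.40. Il2rg stood at 343, 371 and 277 after OVA and at 439, 312 and 377 after BSA, with a log2 fold change of -0.18 ± 0.19 (adjusted p = 0.525, limma). The 95% interval runs from -0.55 to 0.19 for Il2rg. Markers of other cells were uneven between these libraries. The sum of 10 conventional DC markers was 376, 2567 and 1551 normalized counts after OVA and 2990, 2314 and 2460 after BSA, and that of 7 B cell markers was 55.6, 538 and 262 against 571, 349.5 and 469. Without OVA replicate 1, the library with the lowest of these sums, Il2 (log2 3.53) and Il2ra (2.12) were still called. The part of depth, of sex-linked differences and of other cells in these results was not tested.

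**Figure D1:**
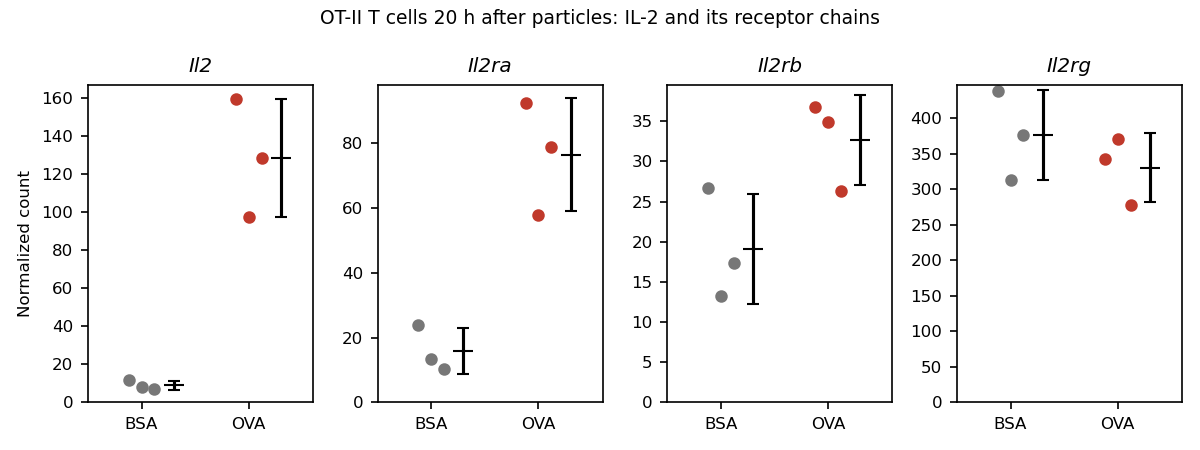
Normalized counts (vertical axes, from 0) of the 4 genes in OT-II T cells 20 h after BSA (grey) or OVA (red) particles; points are the 3 libraries per group, and the bar beside them is the mean with 1 SD. Il2 and Il2ra do not overlap between the groups, while Il2rb and Il2rg do. The share of all genes that separate likewise was not counted.

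Among genes that interleukin-2 and Stat5 are known to induce, 9 of 16 tested were higher in OVA T cells and 0 were lower. Of all genes tested 10.8% were called higher. The median log2 fold change was 1.03 for this list against 0.04 over all genes. The list holds 20 genes. With 1 library left out in turn, 6 to 9 of its 14 to 16 tested genes were higher and 0 lower, with 6 of 16 without BSA replicate 3 and 7 of 16 without OVA replicate 1. Myc, a driver of cell growth, stood at 142 ± 44.3 against 29.3 ± 8.07 normalized counts (mean ± SD, n = 3) and rose by a log2 of 2.22 ± 0.28. The transferrin receptor gene Tfrc rose from 16.3 ± 12.4 to 90.9 ± 19.8. The survival gene Bcl2l1 rose from 11.5 ± 6.79 to 67.6 ± 23.8, and the costimulatory receptor gene Tnfrsf4 (OX40) rose from 36.7 ± 5.91 to 131 ± 28.4. Many of these genes also respond to the T cell receptor.

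The machinery of the receptor itself moved less uniformly. Of 18 tested genes for signalling and feedback 1 was higher and 3 were lower, with a median log2 fold change of -0.25. Of all genes tested 15.9% were called in either direction. The calls depended on single libraries. Without OVA replicate 1 or without BSA replicate 3, 0 were higher and 0 lower. Without BSA replicate 1 or without BSA replicate 2, 1 was higher and 0 lower. Without OVA replicate 3, 0 were higher and 1 lower, whereas 2 were higher and 7 lower without OVA replicate 2. Stat5a rose from 17.1 ± 3.62 to 37.5 ± 9.20 normalized counts (log2 1.07 ± 0.30, adjusted p = 0.0318, limma), whereas Stat5b stood at 31.3 ± 7.29 and 29.2 ± 2.87. The phosphoinositide 3-kinase genes Pik3cd and Pik3r1 fell by 0.87 and 1.33 on the log2 scale, and Socs2, a suppressor of cytokine signalling, fell by 1.61. Socs2 is also among the mature DC markers, which summed to 273 to 456 normalized counts after OVA and 339 to 648 after BSA. The part of DC in its fall was not tested. Jak3, the kinase bound to Il2rg, stood at 65.9 ± 9.52 after BSA and 59.1 ± 25.1 after OVA. Jak1, the kinase bound to Il2rb, had a log2 fold change of -0.63 ± 0.21 (adjusted p = 0.0606, limma). Cish, a feedback inhibitor that Stat5 induces, had one of 1.34 ± 0.43 (adjusted p = 0.0545).

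Of the receptors and cytokines that share Il2rg, 5 could be tested and 1 was called, beside 15.9% of all genes tested called in either direction. Il7r, the interleukin-7 receptor chain that keeps naive T cells alive, was lower after OVA (49.0 ± 18.0 against 103 ± 12.9 normalized counts, log2 -1.13 ± 0.29), a call that was lost without OVA replicate 1 or any BSA library. Of 17 tested regulators of Il2 transcription 2 were higher and 1 lower (median log2 fold change -0.07), a share near the 15.9% of all tested genes called in either direction. Nfatc1, an NFAT factor, rose by 1.52 ± 0.27 and Nfkb1, the p50 subunit of NF-kB, rose by 1.21 ± 0.26 on the log2 scale. Ppp3ca, a catalytic subunit of calcineurin, fell by 1.25, but this call was lost without OVA replicate 1 or 3 or any BSA library.

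**Figure D2:**
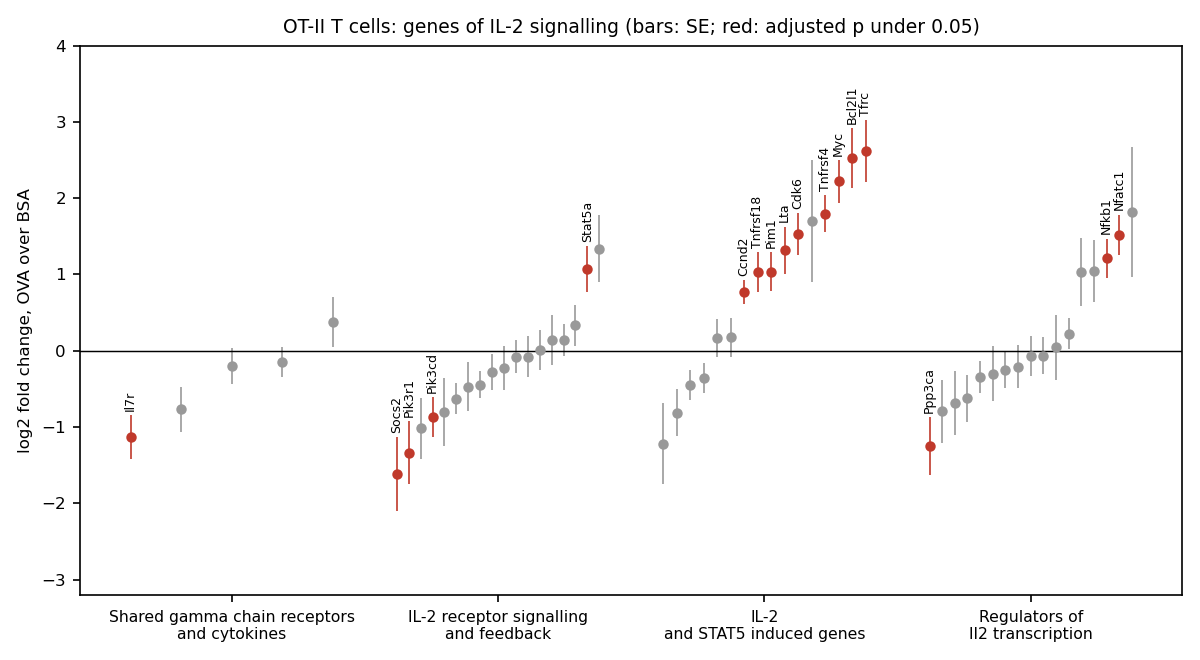
Log2 fold change of OVA over BSA (vertical axis) in OT-II T cells for the tested genes of 4 lists, ordered by size within each list; bars are 1 SE, and red points, which are named, have an adjusted p under 0.05. The called genes of the list induced by IL-2 and STAT5 all lie above 0, up to Tfrc at 2.61, while the other lists hold called genes on both sides or below 0.

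In DC, Il2 was close to the limit of detection. The time course held 14 Il2 counts in 9410966 (1.49 CPM, exact Poisson interval 0.813 to 2.50, counting error only), and 4 of its 10 libraries had none. The costimulation experiment held 6 counts in 8717412, with 3 of 8 libraries at 0, and the 5-replicate experiment held 25 counts in 19761064, with 3 of 15 at 0. No DC library had more than 5 counts. Il2 fell below the filter in all 3 experiments, so differences between DC groups were not tested in the main fit. Without the filter none was called (adjusted p of at least 0.531, edgeR). At this depth a difference could go undetected.

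Il2ra was measured in every DC library. In the time course it stood at 89.7 and 74.5 CPM in DC of non-immunized mice and at 68.7 and 64.2 CPM 12 h after CpG alone. It stood at 65.1 and 68.1 CPM 12 h after OVA and at 99.7 and 79.0 CPM 24 h after CpG alone. At 24 h after OVA it stood at 195.7 and 147 CPM. Both of these last libraries lay above the other 8.

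Against non-immunized DC, Il2ra was called higher 24 h after OVA (log2 1.28 ± 0.23, adjusted p = 0.000856, edgeR quasi-likelihood test), where 14.1% of genes tested were called in either direction and 10.2% were called higher. It was not called 12 h after OVA (-0.08 ± 0.24), where 13.6% of genes were called. After CpG alone the log2 fold change was -0.09 ± 0.25 at 12 h (16.3% called) and 0.30 ± 0.24 at 24 h (11% called). These 4 comparisons share the non-immunized libraries. From 12 to 24 h after OVA, Il2ra rose by a log2 of 1.36 ± 0.23 (adjusted p = 0.00146, edgeR; 8.9% called, 5.03% higher), and from 12 to 24 h after CpG alone the value was 0.39 ± 0.25 (adjusted p = 0.412; 7.63% called).

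The direct comparison of OVA with CpG alone did not reach the threshold. At 24 h the log2 difference in Il2ra was 0.98 ± 0.23 with an adjusted p of 0.134 (edgeR). In that comparison 0% of the 9428 genes were called, 959 had an unadjusted p under 0.05, and DESeq2 called 23. Without the filter on low counts the adjusted p of Il2ra was 0.0102, and without CpG 24 h replicate 1 it was 0.00792. Without OVA 24 h replicate 1 the log2 difference was 0.71 and the adjusted p 0.771. At 12 h the log2 difference was 0.01 ± 0.26 (2.46% of genes called). The difference between the times, the interaction, was 0.97 ± 0.34 (adjusted p = 0.163; 3.38% called). The summed level of 12 mature DC markers was 883 to 1352 CPM without immunization, 5201 and 5769 at 12 h and 4372 and 3287 at 24 h after CpG alone, and 2008 and 1692 at 12 h and 8114 and 6551 at 24 h after OVA. It was thus highest in the libraries with the most Il2ra, but 12 h after CpG it was also above non-immunized DC while Il2ra was not. The part of DC maturity was not tested here. The sum of the T cell markers was 2798 and 3483 CPM 24 h after OVA and 5849 and 6149 without immunization. The sum of 5 regulatory T cell markers, 514 and 382 CPM 24 h after OVA, lay around the 456 and 499 of non-immunized DC. Fewer cells of a type and less RNA per cell cannot be told apart in such bulk samples.

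**Figure D3:**
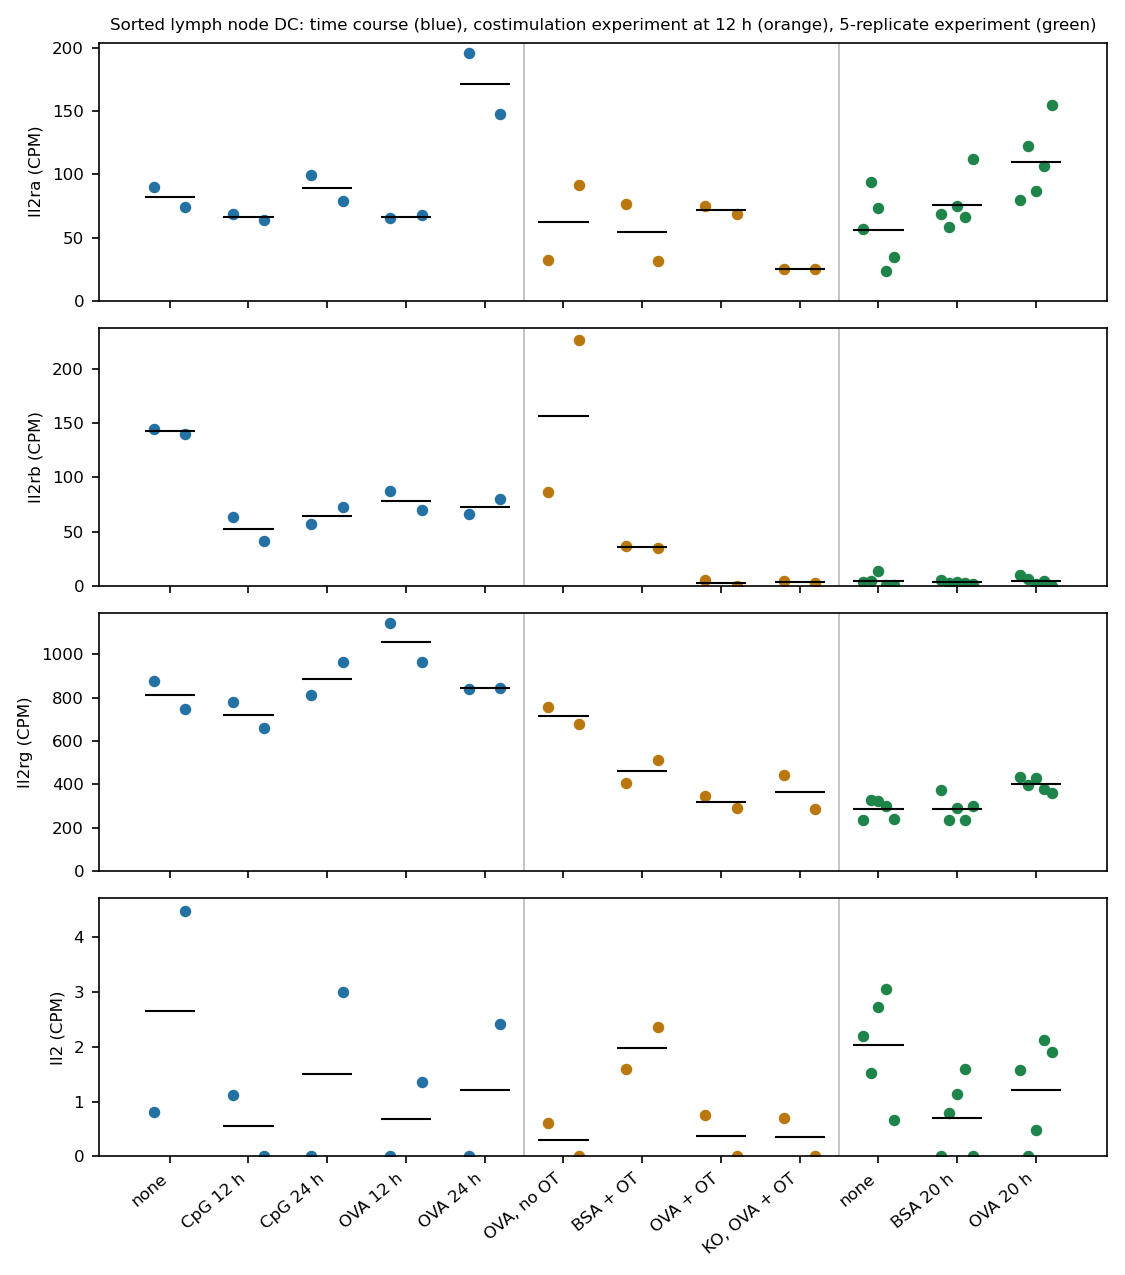
CPM (vertical axes, from 0) in the 33 DC libraries by group, with points for libraries and a line for the group mean; KO is Cd80/86 -/-, and "no OT" means no transferred OT cells. The 2 libraries 24 h after OVA are the highest of the time course for Il2ra, and the highest Il2rb value, 226 CPM, belongs to a library with OVA and no OT cells.

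In the 5-replicate experiment Il2ra rose after OVA as well. It stood at 56.9, 93.6, 73.5, 23.2 and 34.5 CPM in non-immunized DC and at 69.0, 58.3, 75.0, 66.1 and 112 CPM 20 h after BSA. After OVA it stood at 79.4, 122, 87.2, 107 and 154.5 CPM. Groups overlapped, since the highest non-immunized library lay above 2 of the OVA libraries. Il2ra was called higher after OVA than in non-immunized DC (log2 1.18 ± 0.30, adjusted p = 0.0103, edgeR), where 15.6% of genes were called. BSA against non-immunized gave 0.63 ± 0.30 (adjusted p = 0.241; 5.45% called). OVA against BSA gave 0.54 ± 0.28 (adjusted p = 0.822), with a 95% interval from -0.01 to 1.10. In that last comparison edgeR called 0% of 9159 genes, 561 had an unadjusted p under 0.05, and DESeq2 called 2.

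The Y-linked transcripts split this experiment in a way that touches Il2ra. Non-immunized libraries with them averaged 74.7 CPM of Il2ra (n = 3) and those without averaged 28.8 (n = 2). OVA libraries with them averaged 97.1 CPM (n = 2) and those without 119 (n = 3). OVA was thus higher within both sets, by less in the first, and with a term for these transcripts the log2 fold change was 1.32 (adjusted p = 0.00671, edgeR). All 5 BSA libraries counted as without them. Their Il2ra was 58.3 to 112 CPM (mean 76.1), above the 23.2 and 34.5 of the non-immunized libraries without them. BSA against non-immunized was not called under any alternative run, the term for these transcripts included. Marker sums moved as well. Mature DC markers summed to 12876 to 21723 CPM in non-immunized and 22774 to 30442 in OVA libraries, plasmacytoid DC markers to 276 to 373 and 545 to 823, and monocyte or macrophage markers to 518 to 1536 and 62.8 to 231. The regulatory T cell sum was 84.4 to 133 CPM in non-immunized and 136 to 237 in OVA libraries. It was mostly Tnfrsf18, while Foxp3, the gene that defines those cells, was at 0 to 5.45 and 0 to 1.95 CPM. The time course sum of these markers, given above, is not split by gene. The part of these changes in cell makeup was not tested.

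The costimulation experiment asked what DC do at 12 h when OT cells are present and when Cd80 and Cd86 are missing. Il2ra stood at 74.6 and 68.9 CPM with OVA and OT cells and at 25.4 and 24.9 CPM in the libraries labelled Cd80/86 -/-. The other 2 groups spread widely, at 76.4 and 31.8 CPM with BSA and OT cells and at 32.1 and 91.8 CPM with OVA and no OT cells. The knockout libraries were thus the lowest 2 of the 8. The log2 fold change of knockout over wild type was -1.58 ± 0.51 with an adjusted p of 0.341 (edgeR), in a comparison with 0% of 9355 genes called, 1068 at an unadjusted p under 0.05 and 28 called by DESeq2. Without the filter on low counts the adjusted p was 0.00354, and without any 1 of the 4 libraries it was 0.688 to 0.936. Mature DC markers summed to 5773 and 6495 CPM in the knockout and to 13068 and 10676 in the wild type. Monocyte or macrophage markers summed to 7880.4 and 6628 CPM against 3838 and 3588, and plasmacytoid DC markers to 2164 and 2202 against 1057 and 1007, both without overlap. Foxp3 was at 0 counts in all 8 libraries. The part of these marker differences was not tested. With against without OT cells the log2 fold change of Il2ra was 0.31 ± 0.47, and with OVA against BSA it was 0.50 ± 0.50.

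Il2rg was abundant throughout the DC. In the time course it stood at 877 and 746 CPM without immunization, 779 and 659.6 at 12 h and 810.4 and 962 at 24 h after CpG alone, and 1144 and 963 at 12 h and 839 and 846 at 24 h after OVA. The 12 h OVA libraries were the highest 2. Against non-immunized DC Il2rg was called higher 12 h after OVA (log2 0.61 ± 0.18, adjusted p = 0.0365, edgeR; 9.56% of genes called higher), but this call was lost without any 1 of the 4 libraries and with library totals as the only scaling (0.37, adjusted p = 0.155). The other 3 comparisons with non-immunized DC gave values between 0.04 and 0.33, and none was called. The lowest of them, 12 h after CpG, was -0.17 with library totals as the only scaling. The direct comparison of OVA with CpG alone at 12 h gave 0.56 ± 0.18 (adjusted p = 0.152, edgeR; 2.46% of genes called). The interaction of time and antigen was -0.63 ± 0.26 (adjusted p = 0.251, edgeR; 3.38% called). Neither was called for Il2rg. Marker sums also differed between the 12 h OVA and the non-immunized libraries. T cell markers summed to 3056 and 2821 against 5849 and 6149 CPM, plasmacytoid DC markers to 2203 and 1839.7 against 922 and 796, and neutrophil markers to 1999.9 and 1998 against 157 and 101. Their part in the Il2rg difference was not tested.

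In the 5-replicate experiment Il2rg had its firmest difference in DC. It stood at 235, 327, 321, 299.7 and 242 CPM in non-immunized DC and at 435, 399, 429, 379 and 363 CPM after OVA. Every OVA library lay above every non-immunized one. The log2 fold change was 0.64 ± 0.16 (adjusted p = 0.00729, edgeR). After BSA Il2rg stood at 373, 236, 290.4, 238 and 303 CPM, 0.17 ± 0.16 over non-immunized DC (adjusted p = 0.597) and not separated from OVA (0.47 ± 0.15, adjusted p = 0.635). Both tested members were called higher for OVA over non-immunized DC, where 9.59% of genes were. Non-immunized libraries with Y-linked transcripts averaged 295 CPM of Il2rg and those without 271, and the OVA libraries 404 and 399. The marker sums given beside Il2ra are those of the same libraries, and their part in the Il2rg difference was not tested.

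In the costimulation experiment Il2rg stood at 756 and 679 CPM with OVA and no OT cells and at 348 and 289 CPM with OVA and OT cells, with no overlap. The log2 fold change was -1.11 ± 0.30 (adjusted p = 0.0816, edgeR), in a comparison with 2.6% of genes called. DESeq2 called it (adjusted p = 0.0267), as did the fit without a filter (0.0256). NK cell markers, described with Il2rb, were also far higher in both libraries without OT cells. B cell markers summed to 94.3 and 120.5 CPM without OT cells and 19.0 and 16.3 with them. Mature DC markers went the other way, at 3322 and 5082 CPM without and 13068 and 10676 with OT cells, as did conventional DC markers, at 4993 and 8654 against 11536 and 12562. T cell markers summed to 504 to 1135 CPM without OT cells and 334 to 382 with them. Plasmacytoid DC markers summed to 2492 to 3700 CPM without and 1007 to 1057 with OT cells. Monocyte or macrophage markers summed to 4839 to 9504 CPM without and 3588 to 3838 with OT cells. The part of these cell types in the Il2rg difference was not tested. It stood at 407 and 514 CPM with BSA and OT cells and at 444 and 286 CPM in the knockout, where the log2 fold change over wild type was 0.13 ± 0.30.

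Il2rb varied widely among the DC libraries. In the costimulation experiment it stood at 86.3 and 226 CPM with OVA and no OT cells, 36.6 and 35.4 CPM with BSA and OT cells, 5.33 and 0 CPM with OVA and OT cells, and 4.94 and 2.49 CPM in the knockout. Both libraries without OT cells lay above the other 6. With against without OT cells the log2 fold change was -5.47 ± 0.68 (adjusted p = 0.00402, edgeR; 1.33% of genes called lower), and the adjusted p was 0.0569 without replicate 2 of the group with OVA and OT cells, which held no Il2rb count. In that comparison all 10 NK cell markers were lower with OT cells. Their sum was 2775 and 7003 CPM without OT cells and 98.9 to 331 in the other 6 libraries. Gzma, an NK cell protease gene, stood at 3270 ± 2136 CPM without OT cells and 64.3 ± 55.5 with OVA and OT cells, and the NK-defining receptor gene Ncr1 at 87.4 ± 38.1 and 0.762 ± 1.08 CPM (mean ± SD, n = 2). The part of NK cells, or of the other cell types whose markers are given with Il2rg, in the Il2rb difference was not tested.

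Against BSA with OT cells, the log2 fold change of Il2rb with OVA and OT cells was -3.36 ± 0.75 (adjusted p = 0.437, edgeR), in a comparison where 0.0107% of genes were called, which is 1 gene. DESeq2 called it (adjusted p = 0.0133), as did the fit without a filter (2.14e-07). The values in the knockout and its wild type, 0 to 7 counts per library, were too low to tell apart (0.24 ± 1.01). The NK and T cell marker sums of these 3 groups overlapped. The NK cell sum was 331 and 231 CPM with BSA, 267 and 98.9 with OVA and 252 and 169 in the knockout. The T cell sum was 298 and 824, 382 and 334, and 320.4 and 379 CPM. The B cell sum was 16.3 to 19.0 CPM with OVA, below the 25.5 to 54.2 with BSA and the 25.4 to 43.5 in the knockout. The part of these cells in the Il2rb difference was not tested.

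In the time course Il2rb was highest in non-immunized DC, at 144 and 140.1 CPM. It stood at 63.1 and 41.8 CPM at 12 h and 57.2 and 72.2 CPM at 24 h after CpG alone, and at 87.1 and 69.5 CPM at 12 h and 66.5 and 79.7 CPM at 24 h after OVA. No immunized library reached the non-immunized ones. Il2rb was called lower 12 h after CpG (log2 -1.20 ± 0.24, adjusted p = 0.00201, edgeR; 4.65% of genes lower), 24 h after CpG (-0.91 ± 0.23, adjusted p = 0.0145; 3.05% lower) and 24 h after OVA (-0.75 ± 0.23, adjusted p = 0.0365; 3.92% lower). It was not called 12 h after OVA (-0.62 ± 0.22, adjusted p = 0.0755). With library totals as the only scaling the last was called too (-0.85, adjusted p = 0.0176). DESeq2 did not call the 24 h differences (adjusted p of 0.0614 for CpG and 0.167 for OVA). The call for OVA at 24 h was lost without any 1 of the 4 libraries compared, that for CpG at 24 h was lost without either non-immunized library, and that for CpG at 12 h was lost without CpG 12 h replicate 2 (adjusted p = 0.0541).

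T cell markers moved in the same direction. The sum of the 15 T cell markers was 5849 and 6149 CPM in non-immunized DC and 1809 to 4276 in the immunized groups, and of 15 tested 12 were lower 12 h after CpG, 3 lower and 1 higher 24 h after CpG, and 8 lower at each time after OVA. The NK cell sum was 757 and 669 CPM in non-immunized and 269 to 693 in immunized DC. Within it the NK-defining Ncr1 had 0 to 3 counts per library, and Nkg7, which NK cells share with cytotoxic T cells, stood at 551.5 ± 43.5 CPM in non-immunized DC and 102 ± 24.3 to 213 ± 94.4 CPM in the others. Neutrophil markers summed to 12545 and 16319 CPM 12 h after CpG and to 101 and 157 without immunization. The part of these cells in the Il2rb differences was not tested. In the 5-replicate experiment, where T cell marker sums were 229.8 to 675 CPM, Il2rb had 68 counts in all, 0 to 13 per library, and was not tested.

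**Figure D4:**
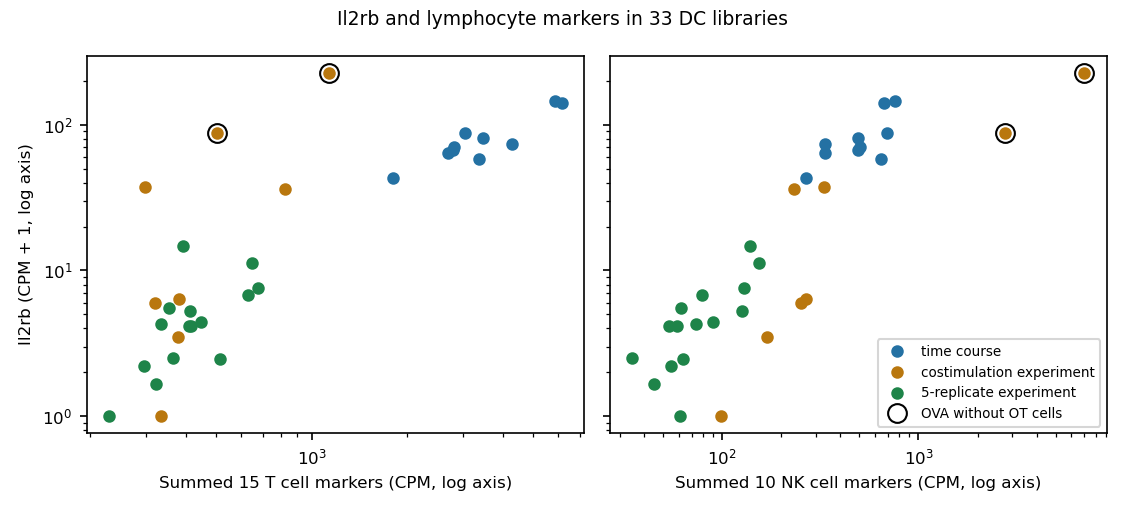
Il2rb in the 33 DC libraries (CPM + 1, log axis) against the summed CPM of 15 T cell markers (left) and 10 NK cell markers (right), both on log axes, coloured by experiment. The ringed pair without OT cells lies apart with NK sums of 2775 and 7003 CPM, and the time course libraries have the highest T cell sums.

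Interleukin-15, which signals through Il2rb and Il2rg on neighbouring cells, is presented by DC on its own alpha chain. In the time course Il15 stood at 21.2 ± 5.81 CPM in non-immunized DC and Il15ra at 35.2 ± 7.88 (mean ± SD, n = 2). Il15 rose after CpG to 97.2 ± 17.1 at 12 h and 89.6 ± 37.3 at 24 h, and after OVA to 95.8 ± 25.7 and 143 ± 25.1 CPM. Il15ra rose after CpG to 139 ± 14.7 and 141 ± 19.9, and after OVA to 79.1 ± 36.7 and 241 ± 48.4 CPM. All 8 of these changes were called by edgeR, with adjusted p-values from 3.86e-06 to 0.00587. In these comparisons 11% to 16.3% of all genes were called in either direction. Il15ra rose further between 12 and 24 h after OVA (log2 1.56 ± 0.28, adjusted p = 0.00204), and for Il15ra the interaction of time and antigen was called (1.55 ± 0.40, adjusted p = 0.0389). At 20 h in the 5-replicate experiment Il15 was higher after OVA than in non-immunized DC (338 ± 127 against 219 ± 60.1 CPM, n = 5), and Il15ra was not called (log2 0.32 ± 0.14, adjusted p = 0.122).

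Other genes of the pathway in DC followed no single direction. Of 20 tested genes for IL-2 receptor signalling and feedback, 5 were higher and 3 lower 12 h after CpG, 7 and 1 at 24 h after CpG, 3 and 3 at 12 h after OVA, and 5 and 2 at 24 h after OVA. Of all genes 16.3%, 11%, 13.6% and 14.1% were called in either direction in these comparisons. Socs2, itself among the mature DC markers, rose to 607 ± 134 CPM 24 h after OVA from 58.3 ± 8.73. Lck, a T cell kinase, was lower in 3 of these 4 comparisons, the exception being CpG at 24 h. At 20 h after OVA 4 were higher and 0 lower, near the 15.6% of all genes called in either direction, among them Jak3 (87.4 ± 18.3 against 62.3 ± 12.4 CPM) and Stat3 (510.1 ± 44.9 against 423 ± 65.5 CPM). With against without OT cells, 7 of 18 tested genes that IL-2 and Stat5 induce were lower and 0 higher, beside 1.33% of all genes called lower. They included the cytotoxic gene Gzmb (47.4 ± 49.3 against 1414 ± 525 CPM), which NK cells carry.

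**Figure D5:**
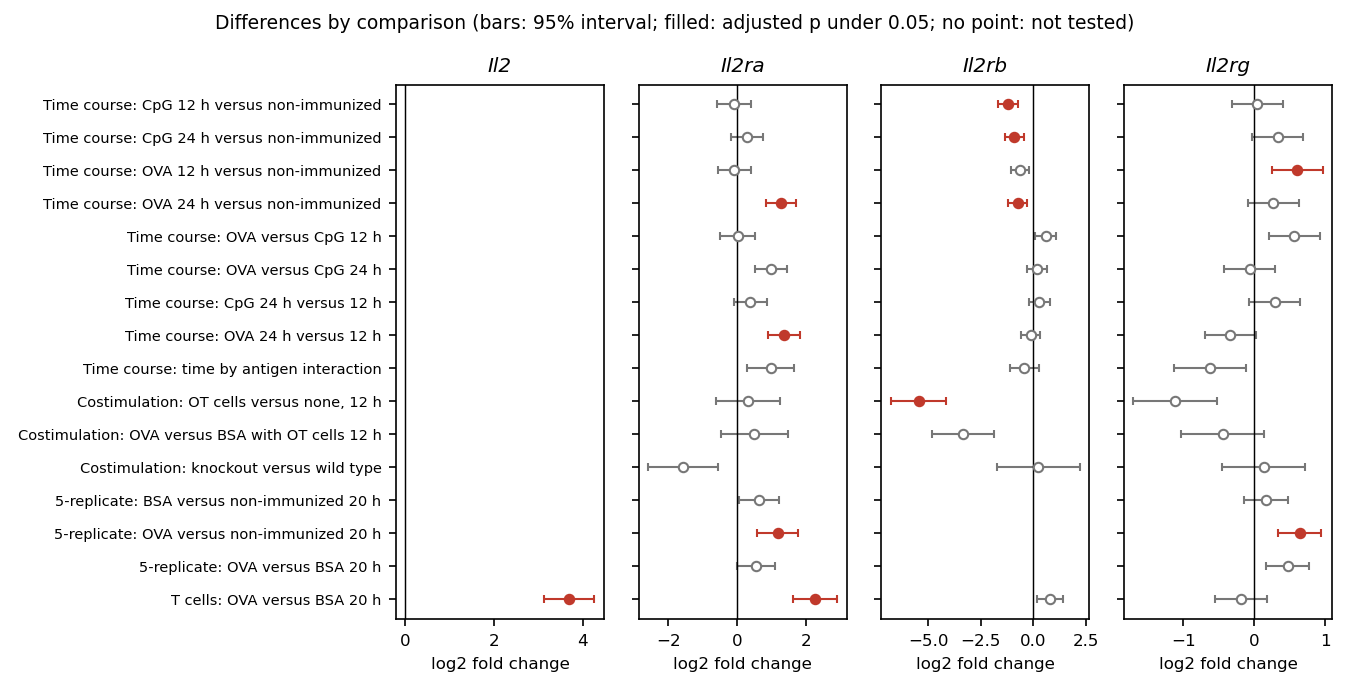
Log2 fold change (horizontal axes, scaled for each gene) of the tested members in the 16 comparisons, with bars for the 95% interval; filled red points have an adjusted p under 0.05 and rows without a point were not tested. Il2rb points that are called lie below 0, and called points of Il2, Il2ra and Il2rg lie above 0.

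The genes whose levels followed a member most closely in DC were found over 7169 genes from the mean of Pearson's r of log2(CPM + 1) in the 3 experiments (10, 8 and 15 libraries). This is a description, since the libraries of an experiment share groups and depth. For Il2ra they were Rras2 (mean r 0.74), Stat3 (0.73), Nipal1 (0.72), Atmin (0.72) and Mtif3 (0.71). For Il2rg they were Shisa5 (0.84), Gmppb (0.77), Sp100 (0.76), Atp1b3 (0.70) and Lgals3bp (0.69). Il2ra and Il2rg had a mean r of 0.15 with each other, from -0.06 and -0.01 in the time course and the costimulation experiment to 0.53 in the 5-replicate experiment. With the 15 T cell markers the mean r ran from -0.27 to 0.47 for Il2ra and from -0.11 to 0.57 for Il2rg. Il2 and Il2rb were too low in at least 1 experiment to be included.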

How the data were processed

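Libraries were built from polyA RNA of sorted cells, per the labels' protocols. According to the submitters' processing notes bcl2fastq, HISAT 0.1.6 and HOMER were used with the mm9 build. For DC the authors deposited raw counts per gene. For T cells they deposited normalized counts, a signal in which 100% of values were whole multiples of a step per library (within 0.01 reads), together with log2 fold changes and an adjusted p-value per gene, per the file headers. The filter behind its 7830 genes (24421, 24421 and 24411 in the DC tables) is not given in the sources used here. Beside the 5-replicate DC there were 4 library columns with NOgraft in their headers and no matching sample, and they were not used.

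DC counts were tested with edgeR 4.0.16 (quasi-likelihood, TMM, filterByExpr, all libraries of an experiment), and T cells with limma 3.58.1 (trend) on log2(normalized count + 1), keeping genes at 10 or more in 3 libraries. Adjusted p is Benjamini-Hochberg over all genes tested, with 0.05 as the threshold, and log2 fold changes carry their SE. TMM moves the changes against non-immunized DC up by 0.20 to 0.23 (time course) and 0.14 to 0.15 (5-replicate) relative to CPM ratios, so log2 fold changes are relative to that shift. Poisson intervals cover counting error only. Groups said not to overlap are a description, since the share of all genes that separate likewise was not counted. Members, lists and tests were chosen with earlier results of these data known. Named list genes are at most 4 per list with the smallest adjusted p, beside Jak1, Jak3, Stat5a, Stat5b and Cish; Lck, Jak3 and Stat3 in DC, Gzma, Gzmb, Ncr1, Nkg7, Foxp3, Tnfrsf18 and the Il15 and Il15ra values were chosen after values were seen. Alternatives were DESeq2 1.42.0, its size factors, library totals only (added after seeing the data), no filter, the replicate number as a block, a term for Y-linked transcripts, other pseudocounts (0.5 and 5), recovered reads and each library left out (for list counts in T cells also added after seeing the data). Scripts ran in R 4.3.3 and in Python 3.11.15 with matplotlib 3.10.9, pandas 2.3.3 and numpy 2.4.6, and were tested on simulated data.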

Additional observations from a re-analysis of the deposited data

How the results depend on the processing

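Of 477 values of the members under an alternative, 437 kept their direction and side of the threshold, 15 lost a call, 9 gained one and 16 changed sign; no called value changed sign. Il2 and Il2ra in T cells, Il2ra 24 h after OVA and Il2ra and Il2rg 20 h after OVA against non-immunized DC kept their calls under all alternatives run.

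DESeq2 gave -0.92 and -0.73 for Il2rb 24 h after CpG and OVA (both calls lost), and it called Il2rg with against without OT cells (-1.12) and Il2rb with OVA against BSA (-3.47). Without a filter the values newly called were 0.97 (Il2ra, OVA against CpG at 24 h), -1.11 (Il2rg, OT cells), -3.36 (Il2rb, OVA against BSA) and -1.56 (Il2ra, knockout). With library totals only, Il2rg 12 h after CpG changed sign (-0.17), as did Il2ra OVA against CpG at 12 h (-0.0062), Il2rg 12 h after OVA lost its call (0.37) and Il2rb 12 h after OVA gained one (-0.85). Same-numbered libraries did not deviate together (correlations -0.06 to 0.16 in the time course, -0.06 to 0.21, -0.16 to 0.19 and -0.14 to 0.05 in the costimulation, 5-replicate and T cell experiments). With the replicate block Il2rg with against without OT cells was called (-1.11), and OVA against BSA with OT cells, which share 1 number, had no such fit.

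With each library left out in turn, Il2ra ranged from -0.23 to 0.061 (CpG 12 h against non-immunized), -0.22 to 0.078 (OVA 12 h), -0.040 to 0.054 (OVA against CpG at 12 h), 0.71 to 1.23 (at 24 h), -0.23 to 1.20 (OT cells) and -0.10 to 1.39 (OVA against BSA with OT cells). Il2rb ranged from -1.51 to -0.92 (CpG 12 h), -1.09 to -0.81 (CpG 24 h), -0.82 to -0.66 (OVA 24 h), -0.27 to 0.043 (OVA 24 against 12 h), -10.34 to -4.68 (OT cells, where groups left with a library at 0 have no bounded fold) and -0.44 to 5.11 (knockout). Il2rg ranged from -0.089 to 0.19 (CpG 12 h), 0.48 to 0.74 (OVA 12 h), -0.16 to 0.058 (OVA against CpG at 24 h), -0.23 to 0.43 (knockout) and -0.0028 to 0.25 (BSA against non-immunized at 20 h). Where an arm kept 1 library, it was assumed to vary like the other groups.

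Counts of genes called moved by over 1.5 times: without a filter from 232 to 469 (OVA against CpG at 12 h), 0 to 240 (at 24 h), 319 to 594 (interaction), 243 to 917 (OT cells), 1 to 227 (OVA against BSA with OT cells), 0 to 303 (knockout) and 0 to 2 (OVA against BSA at 20 h); by DESeq2 from 1282 to 824 (OVA 12 h), 0 to 23, 719 to 460 (CpG 24 against 12 h), 839 to 549 (OVA 24 against 12 h), 1 to 12, 0 to 28 and 0 to 2; with the replicate block from 243 to 696 and 0 to 48; and with the Y-linked term from 499 to 187 (BSA at 20 h). In T cells 1025 genes were called, and 369, 412 and 467 without OVA replicate 1, OVA replicate 3 or BSA replicate 3. The cause of these changes was not tested. Low counts limit Il2 in DC and Il2rb in the 5-replicate DC.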
